A study of Mus musculus with 8 samples.

Results

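The genes described here are 59 protein-coding genes of mouse chromosome 2 that flank Dnajc17, the gene targeted in the study. They were chosen by name, as the rows of the deposited expression table whose gene name is one of the 59, out of 78317 rows in all. The rule uses no measured value, but the genes were proposed with earlier results of these data known. The reference annotation placed all 59 on chromosome 2, from Thbs1 on the side before Dnajc17 to Ctdspl2 on the side after it. Of the 59, 56 had a mean level of 1 TPM or more (transcripts per 1000000, in which each gene is corrected for its length and each library for its total) over the 8 libraries and were tested, among 17811 tested genes.

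Messenger RNA of the basilar membrane, the strip of cochlear tissue on which the sensory hair cells sit among supporting cells, was measured at postnatal day 6 in 4 libraries titled hete and 4 titled homo. The genotype label of the homo libraries is Dnajc17 cKO, a conditional knockout. That of the hete libraries is WT, so title and genotype label do not say the same of the control, and whether it carries a mutant or floxed allele is not given in the sources used here. The same holds for the driver of the recombination, the cells it acts in, the deleted part of the gene and the mouse strain. Libraries are numbered 1 to 4 in both groups, and nothing in the labels ties a number to its own animal. A p-value here therefore measures the spread among libraries, and that spread may be technical.

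A targeted allele is often made in stem cells of one mouse strain and kept in mice of another, so that animals homozygous for it are also homozygous for a stretch of chromosome around it. Such a stretch is known as the passenger or flanking region, and genes in it can differ between groups for reasons of their own sequence. A targeted allele can also act on its neighbours directly, through shared promoters, read-through transcripts or regulatory sequence within the altered part. The comparison asks whether the neighbours of Dnajc17 differ between the homo and hete libraries. The strain of origin and the sequence of the flanking region were not measured here.

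Dnajc17 (ENSMUSG00000034278) encodes a co-chaperone of the J-domain family that can also bind RNA. It stood at 26.51, 25.45, 25.09 and 22.06 TPM in hete libraries 1 to 4 and at 29.33, 27.65, 31.08 and 18.04 in homo libraries 1 to 4. Of the homo values 3 lay above every hete value and the last below every one (log2 fold change 0.07, SE 0.15; adjusted p = 0.969 by limma-trend). A total over the gene does not show whether a deleted part is missing from the transcript, so this value neither checks nor contradicts the labels. Homo replicate 4 was the lowest of the 8, and the log2 fold change without it was 0.24.

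No flanking gene changed at a Benjamini-Hochberg adjusted p under 0.05 (limma-trend, log2 of TPM + 1, adjusted over all tested genes), and 2 genes, or 0.0112%, did so over the whole table. At an unadjusted p under 0.05 there were 8 of 56 flanking genes (14.3%), against a background of 6.05% over all tested genes. Higher in homo were 7 of them, where the background is 3.56%, and 1 was lower, where it is 2.49%. The 4 homo values lay entirely above or below the 4 hete values in 7 of 56 genes (12.5%, background 3.99%). That was 5 genes in the higher direction (background 2.58%) and 2 in the lower (background 1.41%). By exact permutation the smallest p that 4 against 4 libraries allow is 0.0286, and no p here is adjusted over the flanking genes alone.

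In median fold change, its size and the spread between replicates, the flanking genes as a group stood close to the rest of the table. The shares given above, at an unadjusted p under 0.05 and without overlap, were higher than their backgrounds. The median log2 fold change of the flanking genes, homo over hete, was 0.05, and that of all tested genes was 0.02. A share of 66.1% was higher in homo, against 56.3% of all tested genes. The median size of the fold change, whatever its sign, was 0.09 in both, and 48 of 56 flanking genes lay within 0.25 of 0. The spread between replicates was also alike, with a median SD on the log2 scale of 0.15 in hete and 0.12 in homo for the flanking genes, and of 0.16 and 0.14 for all tested genes. Their mean levels ran from 1.08 TPM to 568 TPM, the latter in Pdia3.

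**Figure D1:**
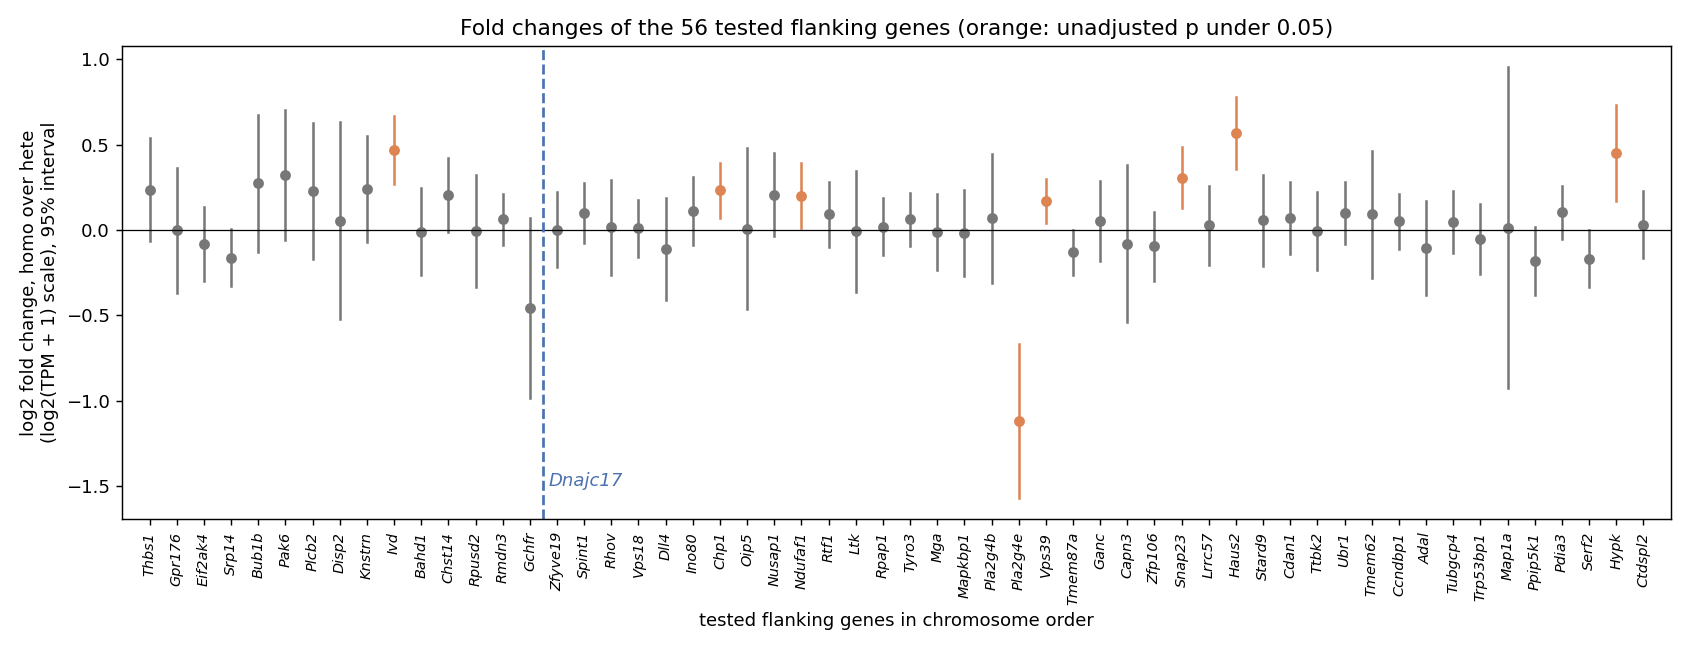
Log2 fold change of homo against hete, from log2(TPM + 1), with its 95% interval, for the 56 tested flanking genes in chromosome order; the dashed line marks Dnajc17 and orange marks an unadjusted p under 0.05. Of the 8 orange genes 1 (Ivd) lies before Dnajc17, and Pla2g4e at -1.12 is the only one below 0.

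Haus2 (ENSMUSG00000027285) encodes a subunit of augmin, the complex that recruits gamma-tubulin to spindle microtubules so that new ones branch off them, and it had the smallest p of the flanking genes. It stood at 8.35, 8.47, 8.43 and 9.30 TPM in hete and at 12.75, 11.65, 14.09 and 14.91 in homo. Every homo value exceeded every hete value, with 2.35 TPM between the groups. On the log2 scale homo exceeded hete by 0.57 (SE 0.09), with a 95% interval from 0.36 to 0.78, a limma-trend adjusted p of 0.233 over all tested genes and an exact two-sided permutation p of 0.0286. In a bulk tissue, fewer cells of a type and less RNA per cell cannot be told apart, here and in the results that follow.

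The other flanking genes of mitosis and chromosome segregation were less far apart. All 6 tested genes of the list had a fold change above 0, with a median of 0.22. An unadjusted p under 0.05 was seen in 1 of them, Haus2 (16.7%, background 6.05%). Nusap1, which encodes a microtubule-bundling protein of the spindle, averaged 4.27 ± 0.46 TPM over the hete libraries and 5.07 ± 0.33 over the homo libraries (SD, n = 4 per group), a log2 fold change of 0.21 (SE 0.11), and the groups overlapped by 0.08 TPM at 1 homo library. Bub1b, a kinase-like protein of the spindle checkpoint, stood at 0.27 (SE 0.18) on that scale, with homo replicate 4 highest of all at 7.40 TPM and a value of 0.13 without it. Knstrn, a spindle protein that binds kinetochores, stood at 0.24 (SE 0.14), Tubgcp4, of the gamma-tubulin ring, at 0.05 (SE 0.08), and Oip5, which takes part in loading the centromeric histone, at 0.01 (SE 0.21). Oip5 and Tubgcp4 stood below 0 in some of the alternative settings. Knl1, the kinetochore scaffold, was below the filter at 0.53 to 0.66 TPM in every library.

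Genes of the same machinery outside the flanking set were taken from lists. Of 22 tested genes of the kinetochore, spindle checkpoint and proliferation, 18 were higher in homo with a median of 0.11, and 0 had a limma-trend p under 0.05. Cenpa stood at 0.18 (SE 0.09) and Tpx2, on chromosome 2, at 0.26 (SE 0.13). Of 13 tested genes of the gamma-tubulin ring and augmin, 7 were higher (median 0.06). In that list Tubgcp2 had a log2 fold change of 0.25 (SE 0.07; limma-trend, unadjusted p = 0.00417, adjusted p = 0.623), and Haus3, another augmin subunit, stood at -0.30 (SE 0.15).

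The flanking genes of vesicle fusion and endolysosomal traffic held 3 of the 8 genes at an unadjusted p under 0.05, among 6 tested (50%, background 6.05%). They also held 4 of the 7 whose groups did not overlap (66.7% of the 6 tested, background 3.99%). Their median was 0.09, and 5 of 6 were above 0. Snap23 (ENSMUSG00000027287) encodes the SNARE protein of the plasma membrane that serves fusion in most cells outside neurons. It stood at 36.63, 35.12, 42.53 and 37.70 TPM in hete and at 51.02, 45.18, 49.23 and 43.45 in homo. The lowest homo value exceeded the highest hete value by 0.92 TPM, and the log2 fold change was 0.31 (SE 0.08; adjusted p = 0.623 by limma-trend; exact permutation p = 0.0286).

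Vps39 (ENSMUSG00000027291) encodes a subunit of HOPS, the complex that tethers late endosomes and lysosomes before they fuse. Its values were 28.99, 27.77, 29.27 and 28.60 TPM in hete and 33.16, 32.10, 31.56 and 32.54 in homo. The difference was small, 0.17 on the log2 scale (SE 0.06; limma-trend adjusted p = 0.72), but both groups were tight and did not overlap. Vps18, which is shared by HOPS and its relative CORVET, stood at 0.01 (SE 0.07), and of 6 other genes of these complexes 5 were above 0 with a median of 0.06. Vps41 was at 0.09 (SE 0.07) and Vps11 at 0.07 (SE 0.07).

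Chp1 (ENSMUSG00000014077) encodes a calcium-binding protein that is needed by sodium-proton exchangers. It stood at 73.87, 78.45, 77.45 and 81.67 TPM in hete and at 102.41, 83.76, 94.42 and 87.10 in homo. The groups were apart by 2.09 TPM (log2 fold change 0.23, SE 0.07; adjusted p = 0.686 by limma-trend). Tmem87a (ENSMUSG00000033808), a membrane protein of the Golgi, went the other way with no overlap, from 37.22 to 40.34 TPM in hete and from 34.70 to 36.23 in homo. Its log2 fold change was -0.13 (SE 0.06; limma-trend, unadjusted p = 0.051). Zfyve19, which takes part in the abscission checkpoint at the end of cell division, shares its start region with Dnajc17 and stood at 0.00 (SE 0.10).

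**Figure D2:**
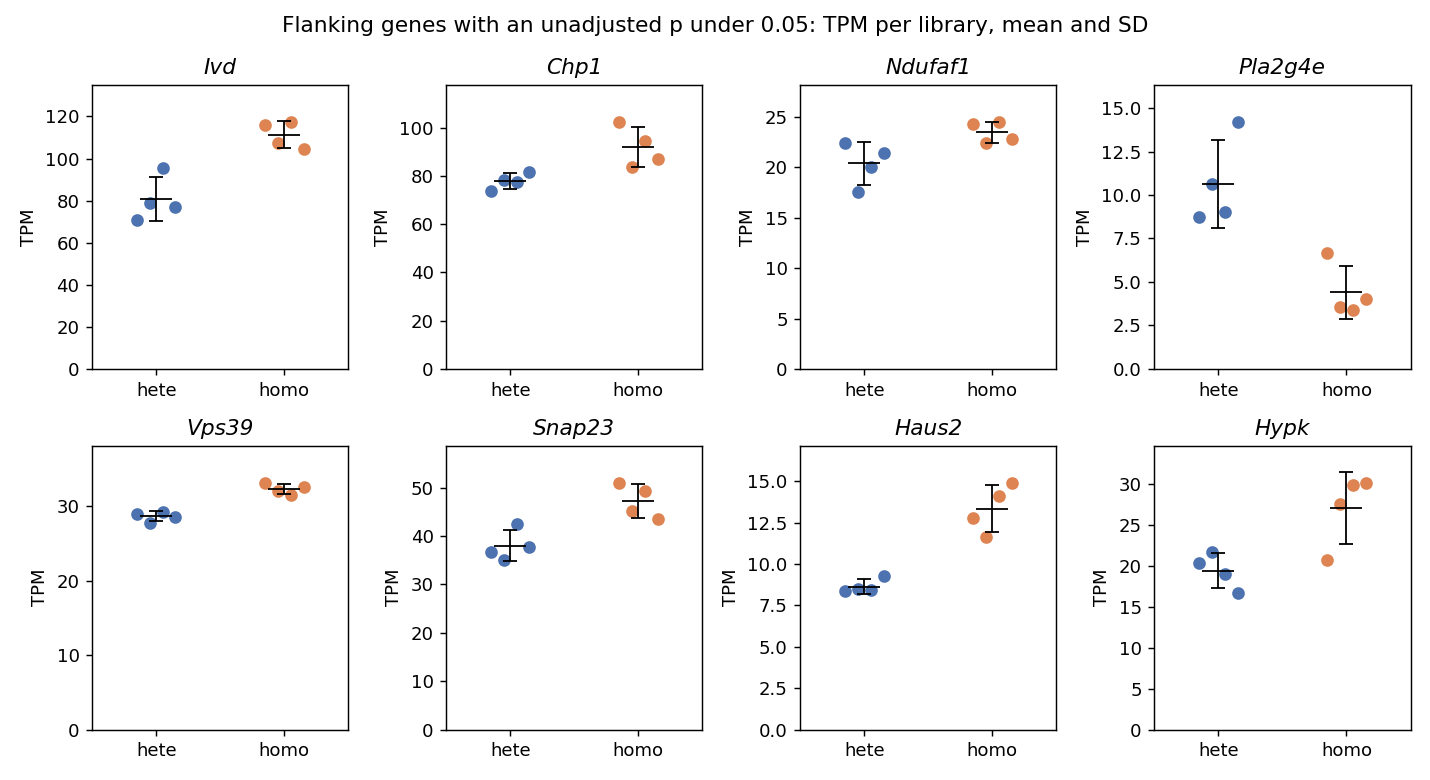
TPM per library of the 8 flanking genes with an unadjusted p under 0.05, hete in blue and homo in orange, with the mean and SD of each group. The groups are apart in 6 panels; in Ndufaf1 and Hypk 1 or more homo values lie within the hete range.

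Of 10 tested genes of mitochondria and metabolism, 7 were higher in homo (70%, against 56.3% of all tested genes), with a median of 0.06. An unadjusted p under 0.05 was seen in 3 (30%, background 6.05%), and 2 had groups that did not overlap (20%, background 3.99%). Pla2g4e (ENSMUSG00000050211) encodes a calcium-dependent acyltransferase of the cytosolic phospholipase A2 family that makes N-acyl phosphatidylethanolamines. It stood at 8.72, 10.61, 9.0 and 14.20 TPM in hete and at 6.64, 3.58, 3.37 and 4.03 in homo. All homo values were lower, by 2.08 TPM at the nearest, and homo replicate 1 was the closest to hete. The log2 fold change was -1.12 (SE 0.20), with a 95% interval from -1.57 to -0.67 (limma-trend adjusted p = 0.284; exact permutation p = 0.0286), the largest in size among the 56 tested flanking genes. Its neighbour and paralog Pla2g4b, a phospholipase that overlaps the gene Gm28042 on the same strand, stood at 0.07 (SE 0.17). In the authors' deposited table of gene ontology terms Pla2g4e was the 1 flanking gene named, in 3 of 387 terms, each with an adjusted p of 1.

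Ivd (ENSMUSG00000027332) encodes isovaleryl-CoA dehydrogenase, an enzyme of leucine breakdown in mitochondria. It stood at 70.98, 78.80, 95.42 and 77.02 TPM in hete and at 116.02, 107.45, 117.38 and 104.75 in homo. The groups were apart by 9.33 TPM, and hete replicate 3 was the nearest to homo. The log2 fold change was 0.47 (SE 0.09), with a 95% interval from 0.27 to 0.67 (limma-trend adjusted p = 0.383; exact permutation p = 0.0286).

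Ndufaf1 (ENSMUSG00000027305), an assembly factor of respiratory complex I, had groups that touched. The values were 22.45, 17.60, 20.05 and 21.43 TPM in hete and 24.28, 22.40, 24.50 and 22.78 in homo. Its log2 fold change was 0.20 (SE 0.09; limma-trend, unadjusted p = 0.0412, adjusted p = 0.81), and the unadjusted p was under 0.05 in 9 of 15 alternative settings and reached 0.121; it was above 0.05 under quantile normalization and without hete replicate 2 or 3 or homo replicate 1, 3 or 4. Of the others, Gchfr, which encodes the feedback regulator of GTP cyclohydrolase I, lies nearest to Dnajc17 on the side before it. It stood at 5.68, 5.14, 5.70 and 4.00 TPM in hete and at 2.20, 2.57, 6.14 and 3.75 in homo, so the homo libraries held both the lowest values and the highest (-0.46, SE 0.24; limma-trend, unadjusted p = 0.082). Its value was -0.69 without homo replicate 3, with an unadjusted limma-trend p of 0.00386, and -0.30 without homo replicate 1. The remaining 6 were Chst14, a sulfotransferase of dermatan sulfate, at 0.20 (SE 0.10), Rmdn3, a tether of mitochondria to the endoplasmic reticulum, at 0.06 (SE 0.07), Pla2g4b, given above, the glucosidase gene Ganc at 0.05 (SE 0.10), Stard9, a kinesin with a lipid-binding domain, at 0.06 (SE 0.12), and Adal, which encodes an adenosine deaminase-like enzyme, at -0.11 (SE 0.12).

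Start regions are printed for 5 of the 8 genes at an unadjusted p under 0.05, to show what lies just before these genes. Each is the longest run without an annotated exon within the 250 bases before the start, in the RefSeq promoter table of build GRCm38.p6, written 5′ to 3′ in the direction of the gene. Capitals mark the CCAAT box (CCAAT or its reverse ATTGG) and the cell cycle element TTTGAA (or TTCAAA).
Ivd (chr2:118861744-118861953, plus strand): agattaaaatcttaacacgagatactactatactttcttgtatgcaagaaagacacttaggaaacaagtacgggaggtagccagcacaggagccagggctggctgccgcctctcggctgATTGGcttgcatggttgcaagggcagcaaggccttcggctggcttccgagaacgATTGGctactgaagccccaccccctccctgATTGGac
Chp1 (chr2:119547628-119547696, plus strand): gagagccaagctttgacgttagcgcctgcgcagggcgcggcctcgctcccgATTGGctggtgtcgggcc
Ndufaf1 (chr2:119662835-119663084, minus strand): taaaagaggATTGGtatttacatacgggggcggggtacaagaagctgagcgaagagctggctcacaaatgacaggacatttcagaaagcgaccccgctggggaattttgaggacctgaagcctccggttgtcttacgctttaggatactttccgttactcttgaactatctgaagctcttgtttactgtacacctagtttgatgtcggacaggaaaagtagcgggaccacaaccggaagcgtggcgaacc
Pla2g4e (chr2:120245336-120245415, minus strand): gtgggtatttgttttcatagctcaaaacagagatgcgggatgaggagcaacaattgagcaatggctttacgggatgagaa
Snap23 (chr2:120567421-120567670, plus strand): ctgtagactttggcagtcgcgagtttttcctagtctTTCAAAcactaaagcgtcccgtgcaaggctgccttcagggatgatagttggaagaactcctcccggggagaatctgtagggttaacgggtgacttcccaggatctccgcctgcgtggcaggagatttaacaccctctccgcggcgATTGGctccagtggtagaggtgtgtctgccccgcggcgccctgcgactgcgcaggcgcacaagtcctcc
The 210 bases of Ivd hold 3 CCAAT boxes, those of Chp1, Ndufaf1 and Snap23 hold 1 each, and the 80 bases of Pla2g4e hold none. Snap23 also has 1 TTTGAA element. For Haus2 and Hypk no exon-free run of this kind reaches 60 bases, because annotated exons cover or break up the window. Vps39 has no entry in the table.

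Over both strands of the 250 bases before the start, CCAAT was in 19 of 63 windows of the flanking genes (30.2%; 55 of 59 genes matched, some with several starts) and in 33.8% of all 32851 windows of the table. TTTGAA was in 4 windows (6.35%), those of Ppip5k1, Rpusd2, Snap23 and Zfp106, and in 16.0% of all windows. Among the 8 windows of the mitosis genes, 2 held CCAAT, at Bub1b and Oip5, and 0 held TTTGAA. A match is a description of letters and not a bound site.

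Among genes of protein synthesis, folding and turnover, 3 of 8 tested were above 0 (median -0.04) and 1 had an unadjusted p under 0.05 (12.5%, background 6.05%). That was Hypk (ENSMUSG00000027245), which encodes a partner of the N-terminal acetyltransferase NatA. It stood at 20.35, 21.71, 19.01 and 16.70 TPM in hete and at 20.80, 27.64, 29.95 and 30.21 in homo. Homo replicate 1 lay inside the hete range and the other 3 above it (log2 fold change 0.45, SE 0.13; adjusted p = 0.652 by limma-trend; exact permutation p = 0.0571).

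Serf2, a small protein known to promote amyloid formation, overlaps Hypk on the same strand and stood lower in homo, at -0.17 (SE 0.08). Its values were 317.22 to 379.18 TPM in hete and 288.88 to 334.60 in homo. The bodies of the 2 genes share 5024 bases in the annotation, so how reads were divided between them may enter both values. A stretch of 297 bases of Serf2 is also identical, at 100%, to the processed pseudogene Gm12481 on chromosome 4, which is listed at 86.16 to 181.47 TPM. The others lay closer to 0. They were Srp14, of the signal recognition particle, at -0.16 (SE 0.07), Pdia3, a disulfide isomerase of the endoplasmic reticulum, at 0.10 (SE 0.07), Ubr1, a ubiquitin ligase of the N-degron pathway, at 0.10 (SE 0.08), and Eif2ak4, the kinase GCN2, which senses lack of amino acids, at -0.08 (SE 0.10). Rpusd2, a pseudouridine synthase, stood at -0.01 (SE 0.15), and the calpain gene Capn3 at -0.08 (SE 0.21). Among 8 tested genes of the amino acid response and its kinases 5 were above 0 (median 0.02), with Asns at 0.39 (SE 0.13; limma-trend, unadjusted p = 0.0137, adjusted p = 0.71) and Ddit3 at -0.16 (SE 0.11).

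No gene of transcription, chromatin and DNA damage had an unadjusted p under 0.05 among 8 tested, and 4 were above 0 (median 0.00). The chromatin remodeller Ino80 stood at 0.11 (SE 0.09), with 7.76 to 9.41 TPM in hete and 8.55 to 9.73 in homo. Zfp106, an RNA-binding zinc finger protein, stood at -0.09 (SE 0.09), and Rtf1, which works with the PAF1 complex on elongating polymerase, at 0.09 (SE 0.09). Trp53bp1, a DNA repair factor, Ctdspl2, a phosphatase, Rpap1, a polymerase assembly factor, Mga, a partner of MAX, and Bahd1, a heterochromatin protein, lay between -0.05 and 0.03. Their partners were also close to 0. Of 12 tested INO80 complex genes 8 were above 0 (median 0.08; Ruvbl1 at 0.17, SE 0.09; Mcrs1 at 0.14, SE 0.08), and of 5 PAF1 complex genes 3 were (median 0.01; Paf1 at 0.11, SE 0.10; Leo1 at 0.07, SE 0.07). None of these partners had a limma-trend p under 0.05.

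Among kinases, phosphatase regulators and phosphoinositide signalling, 3 of 8 tested were above 0 (median 0.00), and 0 had an unadjusted p under 0.05. Ppip5k1, an inositol pyrophosphate kinase, had the smallest p, with 21.79 to 28.27 TPM in hete and 20.97 to 22.76 in homo (-0.18, SE 0.09). Pak6, a p21-activated kinase, stood at 0.71 to 1.10 TPM in hete and 1.02 to 1.59 in homo (0.32, SE 0.17), and passed the filter only through its homo values. The phospholipase gene Plcb2 was at 0.23 (SE 0.18), above the hete range in homo libraries 1 and 2. The receptor tyrosine kinases Tyro3 and Ltk stood at 0.06 (SE 0.07) and -0.01 (SE 0.16), and the ciliogenesis kinase Ttbk2, the JNK scaffold Mapkbp1 and the orphan receptor Gpr176 between -0.02 and 0.00. Of the TAM receptors and ligands beside Tyro3, 2 of 4 were above 0 (median 0.03), with Axl at 0.13 (SE 0.08) and Gas6 at -0.06 (SE 0.09). Itpka (0.32 to 0.98 TPM) and Ppp1r14d (0.33 to 1.49 TPM) were below the filter and were not tested.

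The 4 secreted and surface signalling genes had 0 with an unadjusted p under 0.05 (median 0.08). Thbs1, an adhesive matrix protein, stood at 47.09 to 63.90 TPM in hete and 56.96 to 84.27 in homo (0.24, SE 0.13). Spint1, a protease inhibitor of epithelia, was at 0.10 (SE 0.08), the Notch ligand Dll4 at -0.11 (SE 0.13) and Disp2, a relative of the Hedgehog release factor Dispatched, at 0.06 (SE 0.26). Of 7 other Notch ligands and receptors 5 were above 0 (median 0.00), among them Jag1, which is also on chromosome 2, at 0.24 (SE 0.07; limma-trend, unadjusted p = 0.00891, adjusted p = 0.684), and Dll1 at 0.30 (SE 0.18).

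All 6 remaining genes were above 0, by 0.01 to 0.09, and 0 had an unadjusted p under 0.05; Rhov, Lrrc57 and Map1a stood below 0 in some of the alternative settings. They were Rhov (0.02, SE 0.12), Cdan1, which is mutated in an inherited anaemia (0.07, SE 0.09), Ccndbp1, a cyclin D binding protein (0.05, SE 0.07), Lrrc57 (0.03, SE 0.10), Tmem62 (0.09, SE 0.17) and Map1a. Map1a, a microtubule-associated protein of neurons, varied most, at 4.26, 10.93, 9.44 and 12.01 TPM in hete and 9.97, 6.48, 4.94 and 17.17 in homo. Its lowest library, hete replicate 1, also had the lowest mean of the 8 neuron markers (4.20 on the log2 scale). Its highest, homo replicate 4, had the highest mean (5.15). Among the single markers Nefl (28.51 and 86.00 TPM), Snap25, Tubb3 and Isl1 were lowest and highest in these same libraries. Nefm and Syt1 shared only the highest library, and Gap43 and Prph shared neither. The part of nerve tissue in the library in the Map1a values was not tested.

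**Figure D3:**
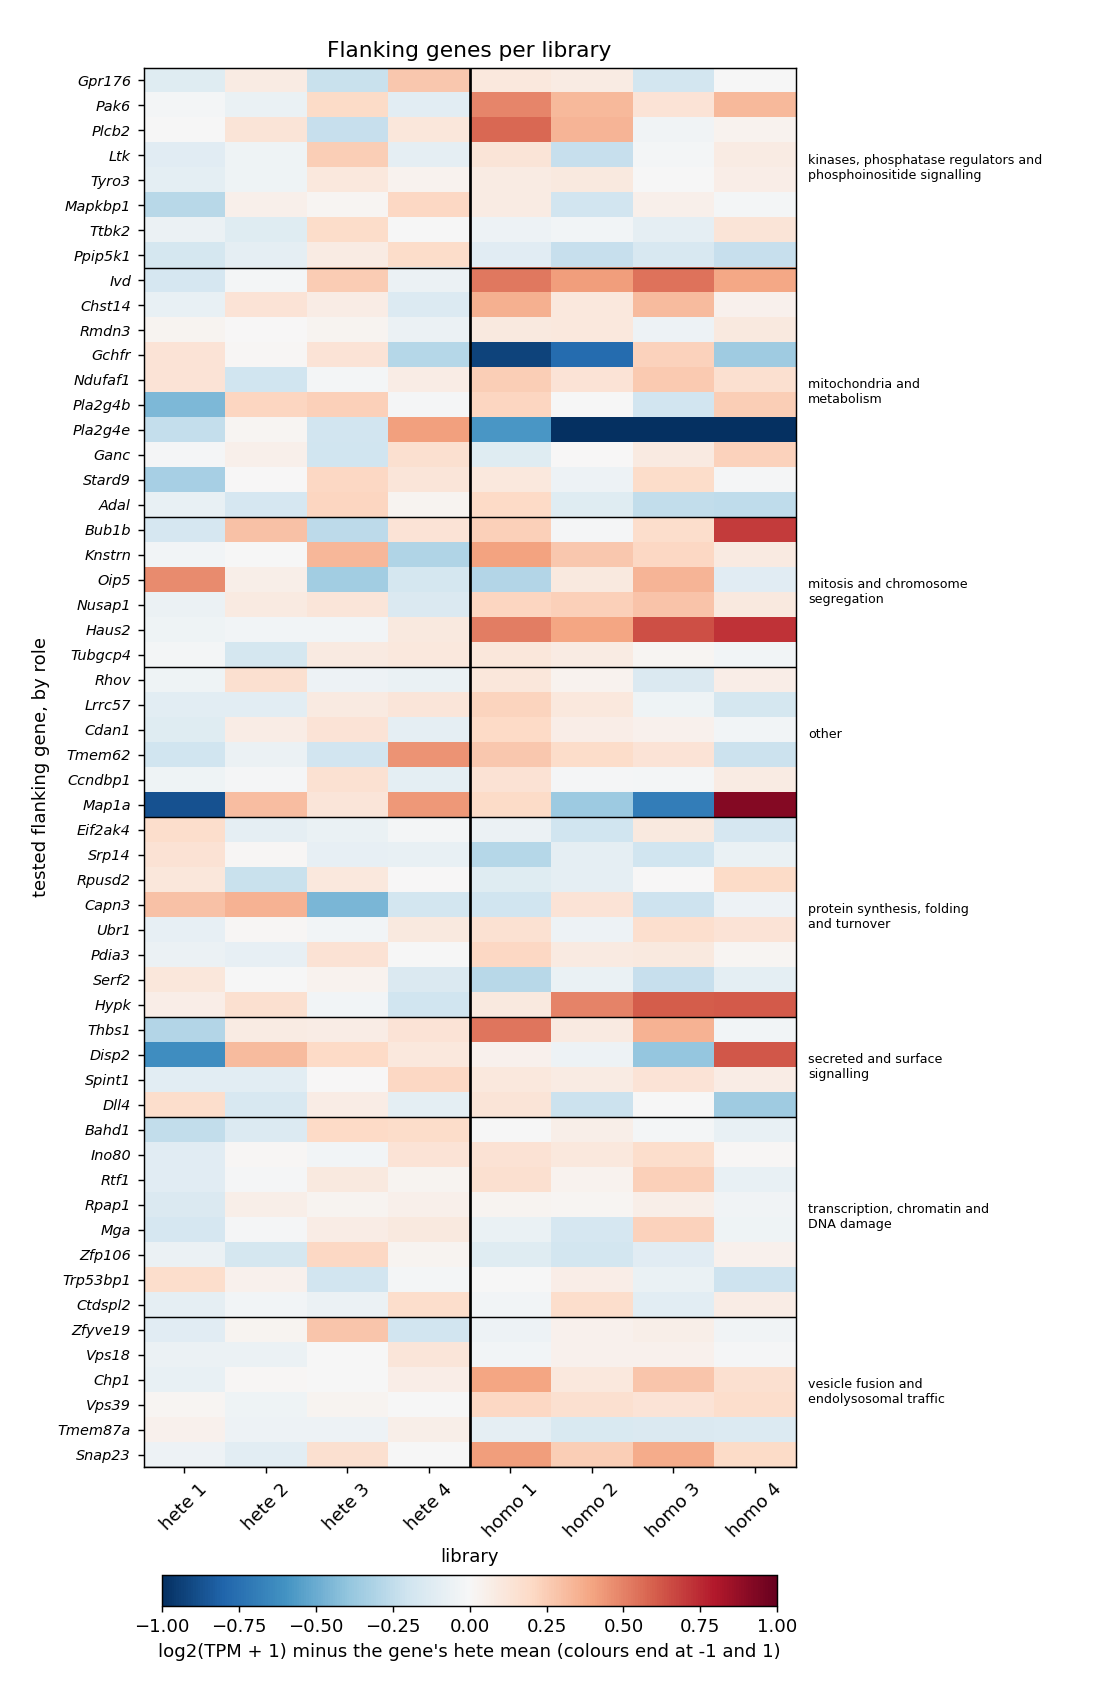
Each tested flanking gene (rows, by role and in chromosome order within a role) in each library (columns), as log2(TPM + 1) minus the gene's mean over the 4 hete libraries, with colours ending at -1 and 1. Pla2g4e is low in all 4 homo libraries, Haus2 and Ivd are high in all 4, and Map1a, Disp2 and Gchfr vary within a group.

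The levels of cell type markers bear on any gene of a mixed tissue. Over all tested genes 6.05% had a limma-trend p under 0.05, and 3.99% had groups that did not overlap. Hair cell markers were present, with Pou4f3 at 15.17 to 20.37 TPM in hete and 12.65 to 18.15 in homo and Myo7a at 14.10 to 20.55 and 15.83 to 20.85. Their summed level was 174 to 358 TPM in hete and 120 to 189 in homo, in which the single gene Ocm took the largest share; 2 of 7 tested were above 0, and Otof (-0.30, SE 0.10) and Ocm (-0.92, SE 0.34) had a limma-trend p under 0.05. Supporting cell markers summed to 6557 to 7585 TPM in hete and 7394 to 8111 in homo (7 of 8 above 0). Of these, 3 had a limma-trend p under 0.05 and groups that did not overlap, Otog (0.28, SE 0.07), Tectb (0.21, SE 0.07) and Tecta (0.56, SE 0.18). Neuron markers summed to 196 to 330 TPM and 236 to 418 (8 of 8 above 0, 2 with a limma-trend p under 0.05; Syt1 at 0.31, SE 0.07, and Isl1 at 0.29, SE 0.08), and glial markers to 1037 to 1721 and 1012 to 1905 (7 of 8, 1 with such a p; Egr2 at 0.62, SE 0.26, and Foxd3 at 0.36, SE 0.22).

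Granulocyte markers did not overlap between the groups in their sum, at 6.0 to 8.49 TPM in hete and 12.0 to 58.0 in homo. Of 8 listed, 4 passed the filter, all above 0. A limma-trend p under 0.05 was seen in 3 (S100a9 at 1.77, SE 0.57, and Ngp at 1.20, SE 0.43). Markers this low can pass the filter through their homo values, so these counts are not independent of it. Homo replicate 1 had the highest mean of the list, 1.99 on the log2 scale, against 1.06 to 1.31 in the other homo libraries. Markers of endothelium (4 of 8 above 0; Vwf at -0.30, SE 0.17; Egfl7 at 0.16, SE 0.14), macrophages (3 of 8, 1 with such a p; Aif1 at -0.30, SE 0.11; Fcer1g at 0.30, SE 0.16), melanocytes and stria vascularis (2 of 8; Kcnq1 at -0.20, SE 0.11; Kcne1 at -0.19, SE 0.11), mesenchyme (6 of 8; Postn at 0.17, SE 0.10; Tbx18 at 0.08, SE 0.06), erythroid cells (0 of 5; Hbb-bt at -0.21, SE 0.18; Hbb-bs at -0.21, SE 0.19) and muscle (2 of 2; Mylpf at 0.33, SE 0.33; Tnnt3 at 0.02, SE 0.27) overlapped in their sums. Of 6 listed muscle markers 2 were tested, and no marker was called after adjustment. The part of these cells in the values of Haus2, Pla2g4e, Ivd and the other flanking genes was not tested.

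On the side before it the 3 nearest tested flanking genes were Gchfr, Rmdn3 and Rpusd2, and on the side after it Zfyve19, Spint1 and Rhov, and 0 of these 6 had an unadjusted p under 0.05. Gchfr, at -0.46, lay further from 0 than the other 5. The 10 tested genes just before Dnajc17, flanking genes or not, had a median fold change size of 0.22 on the log2 scale, with 6 of 10 within 0.25 of 0, and the 10 just after it had 0.06, with 10 of 10. Among the flanking genes alone that median was 0.20 before Dnajc17 and 0.08 after it, where all tested genes have 0.09. A larger SE alone widens such a median, and low genes with a large SE were more frequent before Dnajc17, among them Disp2 (SE 0.26) and Gchfr (SE 0.24). Such genes also stood after it, as Oip5 (SE 0.21) and Capn3 (SE 0.21). The part of the SE in these medians was not tested. Of 15 tested flanking genes before Dnajc17 1 had an unadjusted p under 0.05 (6.67%), and of 41 after it 7 had (17.1%), where the background is 6.05%. The difference between the sides was not tested. Counted over all tested genes in chromosome order, flanking genes or not, 2 of 20 genes within 10 places on each side had such a p (10%), 6 of 60 within 30 places (10%) and 33 of 200 within 100 places (16.5%). The remainder of chromosome 2 had 76 of 1078 (7.05%) and the other chromosomes 866 of 15092 (5.74%).

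The share was highest away from Dnajc17 rather than beside it. In bins of 40 tested genes it was 22.5% (9 of 40) at places 20 to 59 after Dnajc17, a bin with 24 of the flanking genes, and 27.5% (11 of 40) at places 60 to 99, a bin with 1 of them (Ctdspl2), then 0 of 40 at places 100 to 139. In the bin around Dnajc17 it was 7.69% (3 of 39). On the side before, the 7 bins reaching from place -340 to place -61 each held between 10 and 17.5%. The 1 gene of chromosome 2 called after adjustment lies in the bin from place -260 to place -221. Far off on the side after, the bin at places 500 to 539 also held 17.5% (7 of 40), all 7 lower in homo. Chromosome 2 as a whole, with 8.52% of its tested genes at an unadjusted p under 0.05, was second to chromosome 8 at 9.07%. Neighbouring genes can share regulation, so genes in a bin are not independent.

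**Figure D4:**
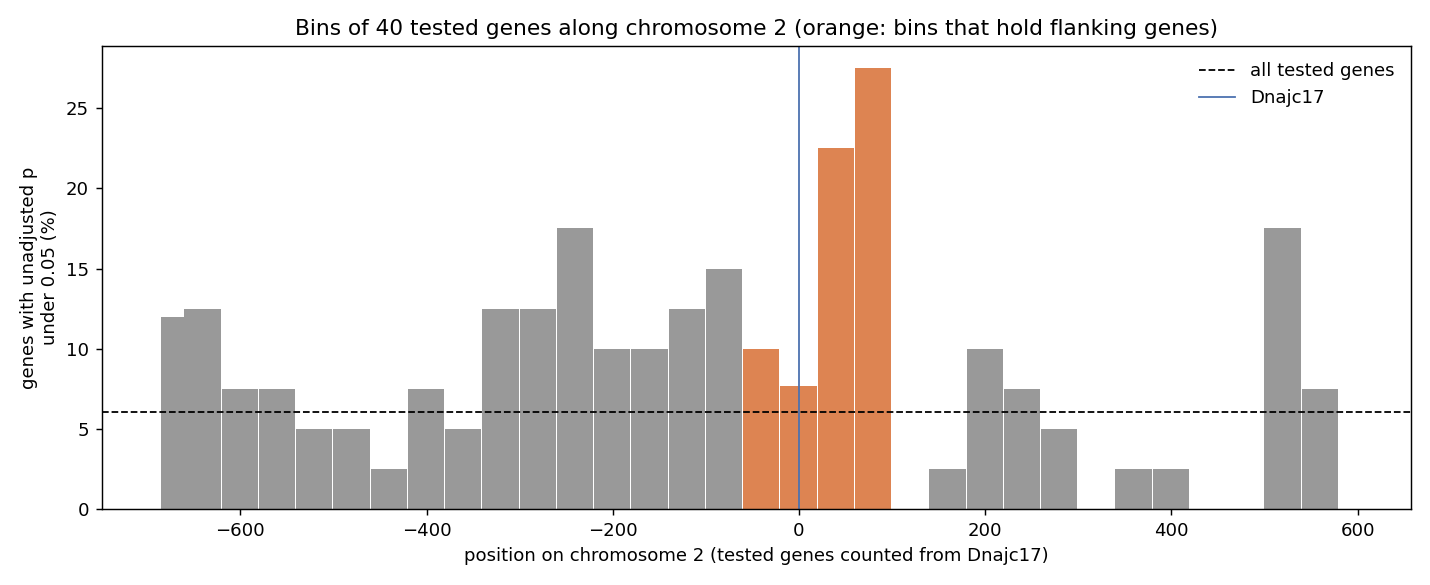
Percentage of tested genes with an unadjusted p under 0.05 in bins of 40 tested genes along chromosome 2 (the bins at both ends hold fewer), by place in gene order from Dnajc17; orange marks bins that hold flanking genes and the dashed line the 6.05% of all tested genes. The highest bars, 22.5% and 27.5%, stand after Dnajc17, with a gap of 0 beyond them.

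Other tested genes between Thbs1 and Ctdspl2, Dnajc17 left out, gave 4 of 26 at an unadjusted p under 0.05 (15.4%, background 6.05%). They were Lcmt2 (0.26, SE 0.11), Zscan29 (-0.24, SE 0.09), Mfap1b (0.20, SE 0.07) and Mfap1a (-0.24, SE 0.08), named after their values were seen. Groups without overlap were seen in 1 of the 26, Mfap1a (3.85%, background 3.99%). Mfap1a and Mfap1b are near-identical copies, at which reads can be divided in more than 1 way, and they went in opposite directions. Just beyond the flanking genes, and likewise named after its values were seen, Eif3j1, a factor of translation initiation, had a smaller p than any of them. It stood at 9.88 to 12.23 TPM in hete and 15.74 to 17.23 in homo (log2 fold change 0.55, SE 0.09; limma-trend, unadjusted p = 8.1e-05, adjusted p = 0.16). Near-identical copies of Eif3j1 elsewhere were not sought, so how its reads were divided is not known here.

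Gene pairs that start within 1000 bases of each other on opposite strands share a start region, so their values were set side by side, first for the 4 pairs within the tested flanking genes and Dnajc17. Haus2 and Lrrc57 start 137 bases apart, and Haus2 stood at 0.57 where Lrrc57 stood at 0.03, with 17.94 to 21.22 TPM in hete and 17.08 to 22.86 in homo. Nusap1 and Oip5, 171 bases apart, stood at 0.21 and 0.01. Ganc and Tmem87a, 217 bases apart, stood at 0.05 and -0.13. Dnajc17 and Zfyve19, 178 bases apart, stood at 0.07 and 0.00. Flanking genes also form such pairs with 3 tested protein-coding genes outside the set. Adal and Lcmt2, 225 bases apart, stood at -0.11 and 0.26, and Tubgcp4 and Zscan29, 471 bases apart, at 0.05 and -0.24, each with the partner on the other side of 0. Pdia3 and Catsper2, 17 bases apart, stood at 0.10 and 0.11. The differences within pairs were not tested. In the annotation 24 flanking genes overlap another gene with a mean of at least 1 TPM. The library kit keeps strand, but whether the counting used it is not given in the sources used here, so reads of overlapping genes on opposite strands, such as Trp53bp1 and Tubgcp4, may not be separable.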

How the data were processed

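The 8 libraries were grouped by their titles, hete and homo, 4 each. Gene values are TPM as the authors deposited them, each library adding up to 1000000; TPM keeps no depth, so the depth is unknown here. Per the submitters' processing notes fastp, HISAT2, StringTie, RSEM, DESeq2 and GRCm39 were used, without versions or roles. Per the labels' protocols, a stranded kit took 1 µg of total RNA.

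Genes whose mean reached 1 TPM were fitted as log2(TPM + 1) with limma 3.58.1 in R 4.3.3 (trend, robust, genotype the only term, Benjamini-Hochberg adjustment over all 17811 tested genes) and the fit was tested on simulated data. The scale understates changes of low genes. Design choices named a count test first; TPM called for limma-trend. Single named genes also had an exact two-sided permutation test.

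The flanking genes, the 8 role lists, 8 partner lists and 11 marker lists were chosen with earlier results of these data known. Named were Dnajc17, the 3 nearest tested flanking genes on each side, up to 10 in each direction at an unadjusted p under 0.05, and the 2 with the smallest p in each list; every other flanking gene is given by fold change or range.

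Gene order came from GENCODE M21 (GRCm38), matched for 16371 tested genes; no gene coordinates are printed, since the authors' build is GRCm39. RefSeq start regions carry their own build, GRCm38.p6. Copies of the flanking genes and Dnajc17 were sought with blastn 2.17.0. From the table of ontology terms the authors deposited, gene counts (as text, another unit), p-values and adjusted p-values were read. Alternatives were another pseudocount, filters, normalizations, a replicate block and each library left out. Figures were drawn with matplotlib 3.10.9.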

Additional observations from a re-analysis of the deposited data

Results flagged for a closer look

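In 6 of 114 groups of 4 libraries looked at (5.26%; chance flags about 1 in 20), 1 library stood far from the other 3. Thbs1 was lowest in hete replicate 1, at 47.09 TPM. Rpap1 was lowest in the same library, at 14.27 TPM. Rmdn3 was lowest in homo replicate 3, at 23.27 TPM, and Ubr1 in homo replicate 2, at 13.74 TPM. Rhov was highest in hete replicate 2, at 2.97 TPM. Haus2 was highest of the hete group in hete replicate 4, at 9.30 TPM, still below every homo library.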

How the results depend on the processing

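Under 15 alternative settings 0 flanking genes had an adjusted p under 0.05 (limma-trend). The lowest such p was 0.081, for Ivd without hete replicate 3. The number at an unadjusted p under 0.05 ran from 7 to 11, and was 8 with the replicate block. That was 12.5 to 19.6% of the flanking genes tested, where all tested genes had 4.28 to 6.67%. The number of flanking genes tested ran from 45 to 59. Haus2, Pla2g4e, Ivd, Snap23, Hypk, Chp1 and Vps39 had an unadjusted p under 0.05 in all 15. The number whose groups did not overlap was between 8 and 11 with 1 library left out, and 11 without hete replicate 3, where fewer libraries make a gap easier. The share of all tested genes without overlap in those settings is not given here, so these counts have no background beside them. Called over all tested genes were 2 in the reported fit, 1 without a filter on low values, 1 with the replicate block, and 1 to 5 with 1 library left out; the cause was not tested. Same-numbered libraries did not deviate together (correlations -0.08, -0.03, 0.05 and 0.01). Libraries of a shared origin need not deviate together, so whether the numbers pair them stays unknown. Of 30 flanking genes within 1 SE of 0, 22 changed sign in some setting, and of the other 26 none did. The log2 fold change of Dnajc17 was -0.01 without homo replicate 3. TPM gives no depth, so no detection limit was set for the low genes.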
